A study of Mus musculus with 21 samples.

Results

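The genes described here are the T cell chemokine receptors *Ccr8*, *Ccr4*, *Ccr2*, *Cxcr3*, *Cxcr6*, *Ccr7*, *Cxcr5* and *Cxcr4*, 8 of the 19505 genes measured on 21 arrays. They were chosen by name, and each is measured by 1 transcript cluster, the set of probes that the array assigns to 1 gene. Chemokine receptors are G protein-coupled receptors of the cell surface that read gradients of small secreted proteins, the chemokines, and steer a cell through G proteins of the Gi class, after which arrestins and receptor kinases switch the receptor off. In CD8+ T cells, *Ccr7* leads resting and central memory cells into lymph nodes and *Cxcr5* leads cells to B cell follicles. *Cxcr4* binds Cxcl12, the chemokine that holds cells in bone marrow. *Cxcr3*, *Ccr2* and *Cxcr6* guide effector cells to inflamed or peripheral tissue, and *Ccr4* and *Ccr8* are best known from skin-homing cells, type 2 helper cells and regulatory T cells.

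The study asked how soluble products of leukaemia cells change T cells. Wild-type mouse T cells taken from spleen were activated with beads carrying antibodies to CD3 and CD28. They were kept for 48 h in fresh medium, in AML-conditioned medium or in DC-conditioned medium, with 7 biological replicates in each group, and CD8+ cells were then purified again on magnetic columns for the arrays. AML-conditioned medium is the filtered supernatant of WEHI-3B, an established myelomonocytic leukaemia line of the mouse, and so stands for 1 leukaemia line in culture rather than for leukaemia in an animal. DC-conditioned medium is the filtered supernatant of dendritic cells grown from bone marrow. The labels do not give the age or sex of the mice, do not say whether mice were pooled, and do not tie replicate numbers to a mouse or a day, so p-values measure the spread between these samples. Levels are log2 values, and a level of 1 receptor cannot be set against that of another.

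Some arrays stood apart over all genes. In the first component of the deviations from the group means, all 12 arrays of replicates 4 to 7 lay above all 9 arrays of replicates 1 to 3, in every medium. In the second component, AML replicates 4 and 5 lay at -0.55 and -0.53, against -0.30 to 0.32 for the other 19 arrays. Results that rest on these arrays are given with and without them. The arrays carried the RNA of CD8+ T cells: the mean log2 level of 8 measured CD8 T cell markers was between 10.6 and 10.9 on every array. Of the 8, 0 passed an adjusted p of 0.05 in either AML comparison. Among the marker lists of B cells (7 genes), monocytes and granulocytes (9), dendritic cells (8) and the WEHI-3B line (8), 0 genes passed. Of 5 measured natural killer cell markers, 1, *Eomes*, rose in both AML comparisons. Of 5 CD4 T cell markers, 1, *Cd4*, passed an adjusted p of 0.05 against fresh medium, where 2.77% of all genes passed. *Cd4* rose from 7.77 ± 0.31 to 8.56 ± 0.43 (SD, n = 7 each), by 0.79 (SE 0.18, limma adjusted p = 0.0150), and by 0.81 (adjusted p = 0.0622) without AML replicates 4 and 5. The other 4 did not pass, at 0.84 (*Tnfrsf4*), 0.31 (*Cd40lg*), 0.17 (*Zbtb7b*) and -0.20 (*Ctla4*). In these bulk samples, fewer cells of a type and less RNA per cell cannot be told apart.

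The DNA in front of the start sites of *Ccr8* and *Cxcr4* is shown because these are the receptors whose RNA changed, in opposite directions. Promoters of 6 of the 8 receptors were matched by symbol in RefSeq sequences of the mouse assembly GRCm38.p6. Each printed run covers the 250 bases before the start, 5′ to 3′ on the gene's own strand, and capitals mark matches to any of the motifs searched.

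Ccr8, chr9:120091883-120092132, plus strand: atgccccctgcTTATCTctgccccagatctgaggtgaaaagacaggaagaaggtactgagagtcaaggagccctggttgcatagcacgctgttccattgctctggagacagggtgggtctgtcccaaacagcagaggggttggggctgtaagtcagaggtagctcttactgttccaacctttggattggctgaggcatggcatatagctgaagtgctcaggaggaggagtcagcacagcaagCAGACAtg

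Cxcr4, chr1:128592300-128592549, minus strand: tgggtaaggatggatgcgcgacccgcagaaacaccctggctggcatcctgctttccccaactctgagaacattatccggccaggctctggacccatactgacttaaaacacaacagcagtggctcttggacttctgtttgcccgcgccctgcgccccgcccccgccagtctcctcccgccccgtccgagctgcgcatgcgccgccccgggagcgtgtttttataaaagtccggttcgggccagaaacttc

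The search covered both strands of the window of 300 bases that ends 50 bases after the start. It used the SMAD motifs GTCTAGAC and CAGACA, the STAT motif TTCNNNGAA, the hypoxia factor core ACGTG, the NFAT motif GGAAAA, the GATA motif AGATAA and the E-box CACCTG. In *Ccr8*, CAGACA lay at positions -8 to -3 before the start, a motif held by 21% of the 32851 promoters of this length, and AGATAA lay on the opposite strand at -239 to -234, a motif held by 11.2%. *Cxcr4* held none of the 7 motifs, which says only that these letters are not in this window. The *Cxcr4* run was 61.2% G and C with 19 CpG dinucleotides, and the *Ccr8* run was 53.6% G and C with 1. Of the other receptors, *Ccr4* and *Cxcr3* held CACCTG (20.2% of promoters), *Ccr2* held GGAAAA (23.4%) and AGATAA, and *Cxcr6* held none of the 7. GTCTAGAC (0.213%), TTCNNNGAA (8.3%) and ACGTG (19.6%) were in none of the 6.

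AML-conditioned medium raised *Ccr8* and lowered *Cxcr4*, and the other 6 receptors did not pass the test. That is 2 of 8 receptors, against 2.77% of all genes called (541 of 19505, 1.3% higher and 1.48% lower), where a call is a limma p under 0.05 after Benjamini-Hochberg adjustment over the 19505 genes. At an unadjusted p under 0.05, 15.9% of genes passed. The median difference of the 8 receptors was -0.02, and that of all genes was -0.01. The receptors were picked with earlier results known, so their count is a description. The plot of receptor levels by medium shows all 21 arrays for each gene.

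**Figure D1:**
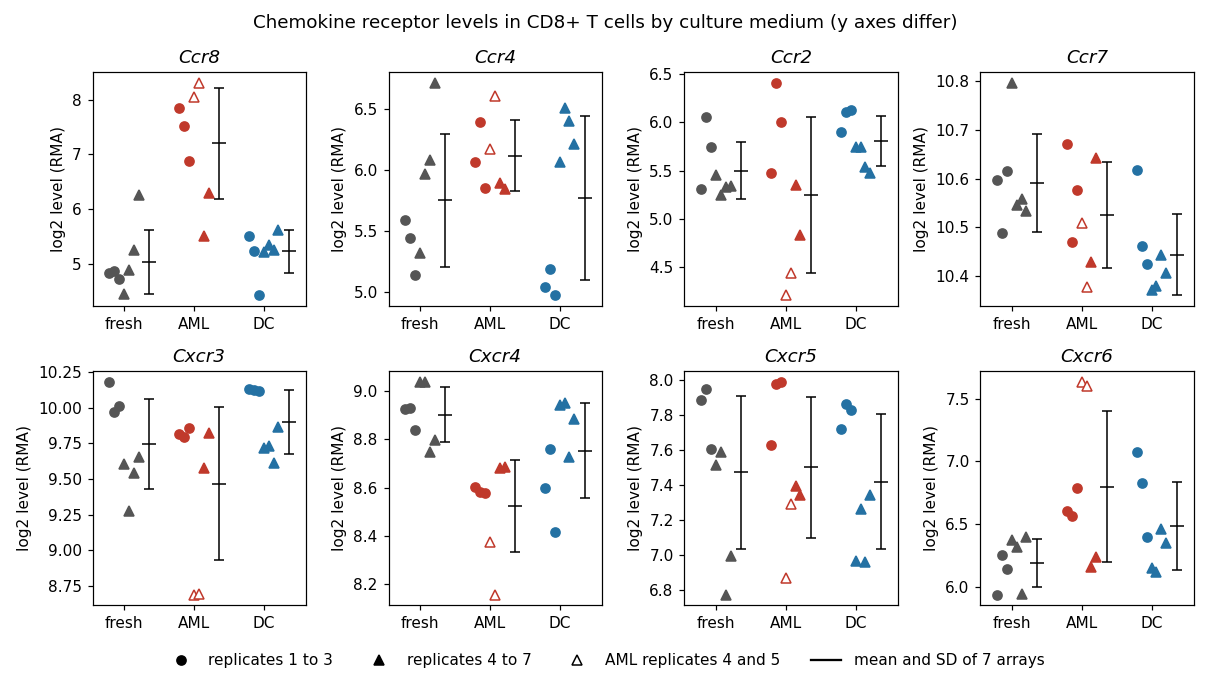
Log2 level (RMA) of the 8 receptors on each of the 21 arrays, by medium; circles are replicates 1 to 3, triangles replicates 4 to 7, open triangles AML replicates 4 and 5, and bars the group mean and SD. *Ccr8* lies between 5.51 and 8.31 in AML-conditioned medium against 4.46 to 6.25 in fresh medium, and *Cxcr4* between 8.16 and 8.68 against 8.75 to 9.04. The y axes differ.

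*Ccr8* is the receptor for Ccl1 and, in the mouse, Ccl8. In fresh medium its log2 level had a lowest value of 4.46, a median of 4.88 and a highest value of 6.25. In AML-conditioned medium the 7 arrays read 7.84, 7.51, 6.88, 8.05, 8.31, 5.51 and 6.30 for replicates 1 to 7. In DC-conditioned medium the lowest was 4.43, the median 5.25 and the highest 5.62. In all, 6 of the 7 AML arrays lay above every fresh and every DC array, and only AML replicate 6 overlapped them; fresh replicate 7, at 6.25, was the array nearest to the AML group. The mean rose from 5.04 ± 0.58 in fresh medium to 7.20 ± 1.02 (SD, n = 7 each), by 2.16 (SE 0.33, 95% confidence interval 1.48 to 2.84), which is 4.46-fold (limma adjusted p = 0.00104). Ranked by the rise from fresh to AML-conditioned medium, *Ccr8* was number 1 of the 19505 genes. An exact permutation test of this gene alone, 1 of 24 such tests, gave a two-sided unadjusted p of 0.00117. Against DC-conditioned medium (5.23 ± 0.39, n = 7) the rise was 1.97 (SE 0.33, interval 1.29 to 2.65), or 3.92-fold (limma adjusted p = 0.00268).

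The size of the *Ccr8* rise depended on which AML arrays were kept, and its sign did not. Without AML replicates 4 and 5, the arrays with the highest levels, it was 1.77 against fresh medium (limma adjusted p = 0.00962, with 0.569% of genes called in that fit) and 1.58 against DC-conditioned medium (adjusted p = 0.0229, with 0.472% called). Against fresh medium it was 2.59 within replicates 1 to 3 (adjusted p = 0.000602, with 1.92% of genes called). Within replicates 4 to 7, where AML replicate 6 lies among the controls, it was 1.83 and did not pass (adjusted p = 0.130). In that subset 0.164% of genes were called, and the unadjusted limma p of *Ccr8* was 0.00229. The rises in the 2 sets differed by -0.77 (SE 0.69, interaction adjusted p = 0.699), so a difference between the sets of replicates was not shown.

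*Ccr4*, the receptor for Ccl17 and Ccl22, is the other receptor of the skin-homing and regulatory T cell group. Its levels ran from 5.13 to 6.72 in fresh medium (median 5.59), from 5.84 to 6.60 with AML-conditioned medium (median 6.07) and from 4.97 to 6.51 with DC-conditioned medium (median 6.07). The 3 groups overlapped over most of their range. The means were 5.75 ± 0.55, 6.12 ± 0.29 and 5.77 ± 0.68 (SD, n = 7 each), and AML against fresh medium gave 0.37 (SE 0.25, interval -0.14 to 0.88, adjusted p = 0.507). The order of the means differed between replicates 1 to 3 and replicates 4 to 7. In replicates 1 to 3, *Ccr4* read 6.10 ± 0.27 with AML-conditioned, 5.39 ± 0.23 with fresh and 5.06 ± 0.11 with DC-conditioned medium (SD, n = 3 each). In replicates 4 to 7 the same means were 6.13 ± 0.35, 6.02 ± 0.58 and 6.30 ± 0.20 (SD, n = 4 each). The AML mean was thus alike in both sets, and the 2 other means were higher in the second. Fresh replicate 4, at 5.31, still lay within the range of fresh replicates 1 to 3, 5.13 to 5.59. Within replicates 1 to 3 alone, AML exceeded fresh medium by 0.72 (adjusted p = 0.0374, with 1.92% of all genes called in that subset) and DC-conditioned medium by 1.04 (adjusted p = 0.00459, 1.63% called). Within replicates 4 to 7 the differences were 0.11 (adjusted p = 0.862, with 0.164% of all genes called) and -0.17 (adjusted p = 0.774, 0.22% called). The change of the AML to DC difference between the sets was -1.21 (SE 0.32, unadjusted p = 0.00116), which did not pass over all genes (interaction adjusted p = 0.294, with 0.00513% of genes called). That of the AML to fresh difference was -0.61 (SE 0.32, interaction adjusted p = 0.487).

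*Cxcr4*, the Cxcl12 receptor, was the one receptor that fell. Its log2 levels in fresh medium had a lowest value of 8.75, a median of 8.92 and a highest value of 9.04. With AML-conditioned medium they were 8.60, 8.58, 8.58, 8.37, 8.16, 8.68 and 8.68 for replicates 1 to 7, and with DC-conditioned medium they ran from 8.41 to 8.95 with a median of 8.76. All 7 AML arrays lay below all 7 fresh arrays, with a gap of less than 0.1 between the groups, while 2 AML arrays, replicates 4 and 5, lay below every DC array. Such separation of 7 from 7 arrays was seen in 0.795% of all genes. The mean fell from 8.90 ± 0.11 to 8.52 ± 0.19 (SD, n = 7 each), a log2 difference of -0.38 (SE 0.09, interval -0.57 to -0.19, limma adjusted p = 0.0242), so the fresh level was 1.30-fold the AML level. The exact permutation test of *Cxcr4* alone gave a two-sided unadjusted p of 0.000583, the smallest that 7 against 7 arrays allow. The DC-conditioned mean of 8.75 ± 0.20 lay between the other two: AML against DC was -0.23 (SE 0.09, adjusted p = 0.216) and DC against fresh was -0.15 (SE 0.09, adjusted p = 0.839).

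The *Cxcr4* call against fresh medium was lost in several fits on fewer arrays, while the sign stayed negative. Without both AML replicates 4 and 5 the difference to fresh medium was -0.28 (limma adjusted p = 0.182, unadjusted p = 0.00406, with 0.569% of genes called). Without AML replicate 4 alone it was -0.35 (adjusted p = 0.0634), without AML replicate 5 -0.32 (adjusted p = 0.0677) and without fresh replicate 4 -0.36 (adjusted p = 0.0546). Within replicates 1 to 3 it was -0.31 (limma adjusted p = 0.158, unadjusted p = 0.0104, with 1.92% of genes called). Within replicates 4 to 7 it was -0.43 (adjusted p = 0.139, unadjusted p = 0.00296, with 0.164% called). The difference to DC-conditioned medium was unequal in the 2 sets: within replicates 1 to 3 it was -0.0028, against -0.40 within replicates 4 to 7, although that contrast between the sets did not pass (interaction adjusted p = 0.474).

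*Cxcr6*, the receptor for Cxcl16 on tissue-resident T cells, came nearest to the threshold among the other 6. Its levels ran from 5.94 to 6.39 in fresh medium (median 6.25), from 6.16 to 7.63 with AML-conditioned medium (median 6.60) and from 6.11 to 7.07 with DC-conditioned medium (median 6.40). In all, 5 of the 7 AML arrays exceeded every fresh array; AML replicates 4 and 5, at 7.63 and 7.60, were far above the rest, and replicates 6 and 7 were within the fresh range. The means were 6.19 ± 0.19, 6.80 ± 0.60 and 6.48 ± 0.35 (SD, n = 7 each). AML against fresh medium gave 0.61 (SE 0.20, interval 0.20 to 1.01, adjusted p = 0.0971) and 0.28 (adjusted p = 0.534) without AML replicates 4 and 5. The difference to fresh medium passed without AML replicate 6 (0.71, adjusted p = 0.0360) or AML replicate 7 (0.70, adjusted p = 0.0470). AML against DC-conditioned medium gave 0.32 (SE 0.20, limma adjusted p = 0.509), and -0.012 without AML replicates 4 and 5. It was -0.12 within replicates 1 to 3, where the DC mean (6.77) exceeded the AML mean (6.65), and 0.64 within replicates 4 to 7.

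*Cxcr3*, the receptor for the interferon-induced chemokines Cxcl9 and Cxcl10, was not called in any of the 3 comparisons. Its levels ran from 9.28 to 10.18 in fresh medium (median 9.65), from 8.69 to 9.86 with AML-conditioned medium (median 9.80) and from 9.61 to 10.13 with DC-conditioned medium (median 9.87). The AML median was no lower than the fresh one, and AML replicates 4 and 5, both at 8.69, were the lowest of all 21 arrays. The means were 9.75 ± 0.32 in fresh, 9.47 ± 0.54 in AML-conditioned and 9.90 ± 0.22 in DC-conditioned medium (SD, n = 7 each). The differences were -0.28 (SE 0.18, adjusted p = 0.483) to fresh and -0.43 (SE 0.18, interval -0.81 to -0.06, adjusted p = 0.249) to DC-conditioned medium. Without AML replicates 4 and 5 they were 0.03 and -0.12, in a fit where replicates 1 to 3, the set with the higher *Cxcr3* levels, make up a larger share of the AML arrays than of the others. Within replicates 1 to 3, where all AML arrays lay below all fresh and all DC arrays, they were -0.23 (adjusted p = 0.238) and -0.30 (adjusted p = 0.160).

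*Ccr2*, the receptor for the monocyte chemokine Ccl2, had the same arrays at its low end. Its levels ran from 5.25 to 6.05 in fresh medium (median 5.35), from 4.21 to 6.41 with AML-conditioned medium (median 5.35) and from 5.48 to 6.13 with DC-conditioned medium (median 5.75). AML replicates 4 and 5 read 4.21 and 4.44, and AML replicate 2 was the highest of all 21 arrays. The means of 5.50 ± 0.29, 5.25 ± 0.81 and 5.81 ± 0.26 (SD, n = 7 each) gave AML against fresh -0.25 (SE 0.24, adjusted p = 0.680) and AML against DC -0.56 (SE 0.24, interval -1.06 to -0.06, adjusted p = 0.270). Against fresh medium the sign differed between replicates 1 to 3 (0.26) and replicates 4 to 7 (-0.64), with an interaction adjusted p of 0.319.

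The lymphoid homing receptors *Ccr7* and *Cxcr5* had the smallest differences between AML-conditioned and fresh medium. *Ccr7* lay between 10.37 and 10.80 on all 21 arrays, with means of 10.59 ± 0.10 in fresh, 10.53 ± 0.11 in AML-conditioned and 10.44 ± 0.083 in DC-conditioned medium (SD, n = 7 each). AML against fresh medium gave -0.07 (SE 0.06, interval -0.20 to 0.07, adjusted p = 0.689). *Cxcr5* had means of 7.47 ± 0.44, 7.50 ± 0.40 and 7.42 ± 0.39 (SD, n = 7 each) in fresh, AML-conditioned and DC-conditioned medium, and AML against fresh gave 0.03 (SE 0.19, interval -0.37 to 0.42, adjusted p = 0.971). The *Cxcr5* means differed more between the sets of replicates than between the media: the group means were 7.80 to 7.87 in replicates 1 to 3 and 7.13 to 7.23 in replicates 4 to 7. In fresh medium the sets came close, with replicates 4 and 5 at 7.51 and 7.59 and replicate 3 at 7.61. The difference between the sets was not tested.

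**Figure D2:**
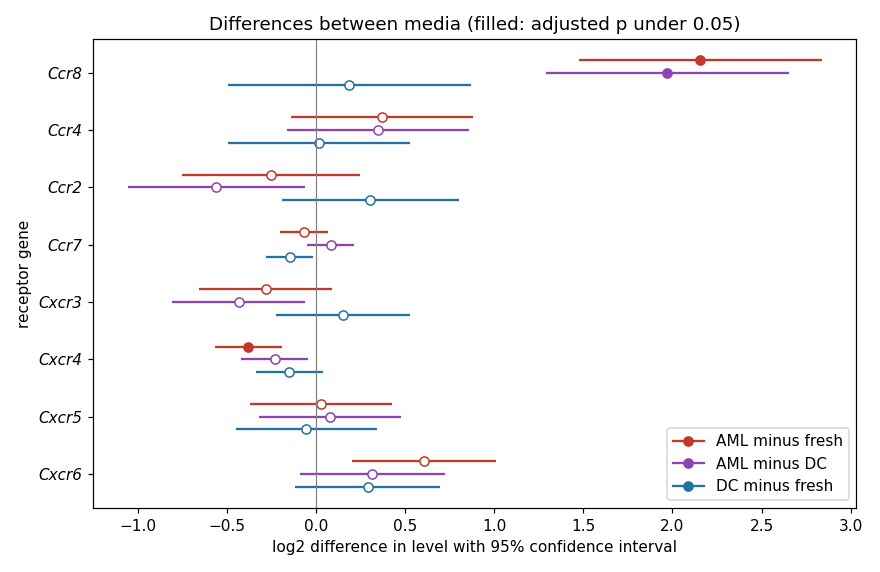
Log2 difference of each receptor between media with its 95% confidence interval (limma, 21 arrays); filled points passed an adjusted p of 0.05 over all genes and open points did not. *Ccr8* is filled at 2.16 (AML minus fresh) and 1.97 (AML minus DC), and *Cxcr4* at -0.38 (AML minus fresh).

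With DC-conditioned against fresh medium 0 of the 8 receptors were called, at a background of 0% of genes called. That was 0 of 19505 by limma, with 1251, or 6.41%, at an unadjusted p under 0.05. The medians were 0.09 for the receptors and -0.01 for all genes. *Ccr8* differed by 0.19 (SE 0.33, interval -0.49 to 0.87, adjusted p = 0.962) and *Cxcr6* by 0.29 (SE 0.20, interval -0.12 to 0.69, adjusted p = 0.864). *Ccr7* was the receptor with the clearest separation: 6 of 7 DC arrays lay below every fresh array, for a difference of -0.15 (SE 0.06, interval -0.28 to -0.01). Its limma adjusted p was 0.756, while the exact permutation test of *Ccr7* alone, 1 of the 24, gave a two-sided unadjusted p of 0.00932. Against DC-conditioned medium as the reference, AML-conditioned medium raised 1 of 8 receptors, *Ccr8*, and lowered none, at a background of 2.39% of genes called (1.13% higher and 1.26% lower). The AML to DC median was 0.08 for the receptors and 0.01 for all genes. The 3 comparisons share their arrays, so their values are given side by side and not as separate evidence. Ordered by mean, *Ccr8* ran from fresh to DC to AML and *Cxcr4* from AML to DC to fresh. In *Ccr8* only the step from DC to AML passed the test, and in *Cxcr4* neither step between neighbours did.

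**Figure D3:**
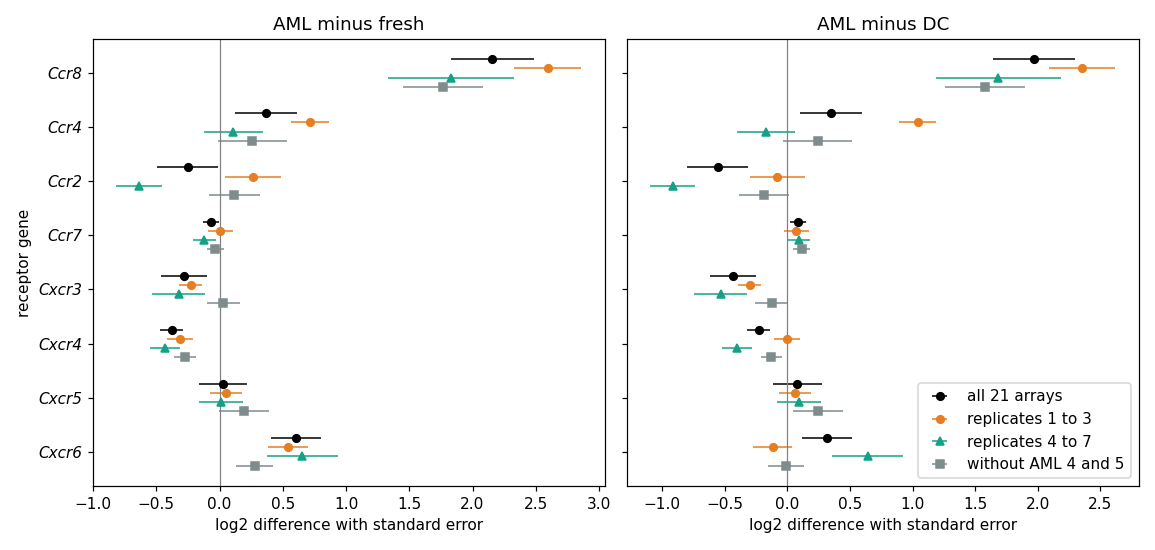
Log2 difference with standard error of each receptor, AML minus fresh on the left and AML minus DC on the right, with all 21 arrays, with replicates 1 to 3 or 4 to 7 of every group, and without AML replicates 4 and 5. *Ccr8* stays between 1.58 and 2.59 in all of them, whereas *Ccr4* against DC-conditioned medium is 1.04 within replicates 1 to 3 but -0.17 within replicates 4 to 7.

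AML replicates 4 and 5 took the ends of the AML range in most receptors. They had the 2 highest AML levels of *Ccr8* and *Cxcr6* and the 2 lowest of *Ccr2*, *Cxcr3*, *Cxcr4* and *Cxcr5*. AML replicate 6 was at the other end in several: it had the lowest AML level of *Ccr8* and *Cxcr6* and, with replicate 7, the highest of *Cxcr4*.

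Few other genes of the chemokine system were called. Of 15 other receptors measured, 1 fell and 0 rose with AML-conditioned against fresh medium, with a median of -0.04, beside 2.77% of all genes called. The one that fell was *Ccrl2*, an atypical receptor that presents chemerin without signalling: its level dropped from 5.98 ± 0.26 to 5.16 ± 0.49 (SD, n = 7 each), a difference of -0.83 (SE 0.16, adjusted p = 0.00570), and -0.60 (adjusted p = 0.0295) without AML replicates 4 and 5. The DC-conditioned mean of *Ccrl2*, 5.48 ± 0.15, lay between the fresh and AML means. It differed from fresh medium by -0.50 (SE 0.16, limma adjusted p = 0.680). AML against DC-conditioned medium gave -0.32 (SE 0.16, adjusted p = 0.352), which did not pass. *Ccr9*, the gut-homing receptor, had means of 7.04 ± 0.60 and 8.0 ± 1.05 (SD, n = 7 each) and did not pass (0.96, SE 0.33, adjusted p = 0.122). Of the 15 chemokines that bind the 8 receptors, 0 were called by limma in any comparison. *Ccl22*, a ligand of *Ccr4*, read 5.17 ± 0.27 in fresh and 6.08 ± 1.06 in AML-conditioned medium (SD, n = 7 each), a difference of 0.91 (SE 0.30, adjusted p = 0.111). *Cxcl12*, the ligand of *Cxcr4*, read 5.45 ± 0.19 and 5.49 ± 0.046 (adjusted p = 0.835).

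Downstream of the receptors, the arrestin gene *Arrb1* fell. It was the 1 of 32 measured signalling and desensitisation genes called with AML-conditioned against fresh medium, a share close to the 2.77% of all genes, and the list median was 0.0042. *Arrb1* encodes beta-arrestin 1, which uncouples activated receptors from their G proteins; it went from 9.07 ± 0.17 to 8.23 ± 0.56 (SD, n = 7 each), by -0.85 (SE 0.17, adjusted p = 0.00698), and by -0.56 (adjusted p = 0.0293) without AML replicates 4 and 5. Against DC-conditioned medium it fell by 0.79 on the log2 scale (adjusted p = 0.0122), and the difference was -0.51 (adjusted p = 0.0521) without those arrays. *Rgs1*, which shortens Gi signalling, rose against DC-conditioned medium by 0.69 (SE 0.15, adjusted p = 0.0122; adjusted p = 0.0532 without AML replicates 4 and 5), and its difference to fresh medium was 0.52 (adjusted p = 0.0551). *Rap1b*, a small GTPase of integrin activation, was called lower against DC-conditioned medium at -0.23 (adjusted p = 0.0485), a call kept in only 2 of 21 fits with 1 array left out (all but those without fresh replicate 1 and AML replicate 6 lost it). The abundant *Gnai2*, the Gi subunit of these receptors, and *Rac1*, a GTPase of cell movement, did not pass, with differences to fresh medium of -0.19 (adjusted p = 0.139) and -0.18 (adjusted p = 0.128).

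A few adhesion genes that act with the receptors in tissue entry were called. Of 20 measured trafficking genes, 1 rose, 1 fell and 18 were not called against fresh medium (median -0.04), and 2 rose, 2 fell and 16 were not called against DC-conditioned medium (median 0.03), beside 2.77% and 2.39% of all genes called. *Itgae*, the CD103 integrin chain that binds E-cadherin on epithelium, rose from 6.44 ± 0.34 to 8.06 ± 0.26 (SD, n = 7 each) with all 7 AML arrays above all fresh arrays, by 1.62 (SE 0.19, adjusted p = 2.53e-05), and by 1.61 (adjusted p = 0.000463) without AML replicates 4 and 5. Separation of 7 from 7 arrays, in either direction, was seen in 0.795% of all genes. The DC-conditioned mean of *Itgae*, 7.35 ± 0.54, lay between those of fresh and AML-conditioned medium. Its difference to fresh medium was 0.91 (SE 0.19, limma adjusted p = 0.302). *Itgb1*, the beta 1 integrin chain, fell from 9.42 ± 0.093 to 8.97 ± 0.23 (SD, n = 7 each), a difference of -0.45 (SE 0.09, adjusted p = 0.00659; adjusted p = 0.0587 without AML replicates 4 and 5). Against DC-conditioned medium the members called were *Itgae* (0.71) and *Ptger4* (0.60), a prostaglandin receptor, as higher and *Itgb1* (-0.63) and *Itga4* (-0.46), its partner chain in VLA-4, as lower. Without AML replicates 4 and 5 the counts were 1 higher and 0 lower against fresh medium and 1 higher and 2 lower against DC-conditioned medium. With 1 array left out, *Itgae* against DC-conditioned medium kept its call in 9 of 21 fits (lost without AML replicates 1, 3, 4, 5 or 7, fresh replicates 3, 5 or 7, or DC replicates 4 to 7). *Ptger4* kept it in 14 (lost without AML replicates 2, 4 or 5 or DC replicates 1, 2, 3 or 5) and *Itga4* in 18 (lost without AML replicate 2 or DC replicates 3 or 4).

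Of 26 measured transcription factors known to act on chemokine receptor genes, 1 rose and 2 fell in both AML comparisons (medians -0.05 to fresh and -0.02 to DC-conditioned medium). Of all genes, 2.77% were called against fresh and 2.39% against DC-conditioned medium. *Eomes*, a T-box factor of memory CD8+ T cells, rose by 0.71 (SE 0.14, adjusted p = 0.00844) from 8.58 ± 0.11 to 9.29 ± 0.48 (SD, n = 7 each). *Smad3*, which carries TGF-beta signals to the nucleus, fell with a log2 difference of -0.56 (SE 0.11, adjusted p = 0.00573), with all 7 AML arrays below all fresh arrays. Separation of 7 from 7 arrays, in either direction, was seen in 0.795% of all genes. *Prdm1*, the effector factor Blimp-1, fell from 5.53 ± 0.33 to 4.27 ± 1.01 (SD, n = 7 each), a difference of -1.27 (SE 0.32, adjusted p = 0.0322). When AML replicates 4 and 5 were left out, the differences of *Eomes*, *Smad3* and *Prdm1* were 0.50 (adjusted p = 0.0705), -0.44 (adjusted p = 0.0549) and -0.72 (adjusted p = 0.198). In that fit 0 of the 26 were called by limma against fresh medium, beside 0.569% of all genes. Against DC-conditioned medium *Eomes* kept its call in that fit (0.59, adjusted p = 0.0345), and *Smad3* and *Prdm1* did not. With all arrays the *Prdm1* difference to DC-conditioned medium was -1.46 (limma adjusted p = 0.0153), and it was called in all 21 fits with 1 array left out. Against fresh medium *Prdm1* lost its call in 8 of these 21 fits. They were the fits without AML replicates 3, 4 or 5 or fresh replicates 2, 4, 5, 6 or 7. *Hif1a*, whose protein rather than RNA is controlled by oxygen, had a difference of -0.28 (adjusted p = 0.142).

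Hypoxia response genes fell and TGF-beta response genes rose with AML-conditioned medium. *Cxcr4* is a classic hypoxia-induced gene. With AML-conditioned against fresh medium, 2.77% of all genes were called and the median of all genes was -0.01. Of 19 measured hypoxia response genes, 14 fell and 0 rose (median -0.77). They included *Ankrd37* (-1.23, adjusted p = 0.00202), *Ndrg1* (-1.39, adjusted p = 0.00795), the glucose transporter gene *Slc2a3* (-1.38, adjusted p = 0.00724) and *Pdk1*, a kinase gene whose product inhibits pyruvate dehydrogenase (-0.51, adjusted p = 0.00481). Of 14 measured TGF-beta response genes, 8 rose and 0 fell (median 0.46), among them the pathway's feedback genes *Ski* (0.90, adjusted p = 4.31e-09), *Skil* (0.79, adjusted p = 1.94e-06) and *Pmepa1* (0.82, adjusted p = 1.94e-06). *Itgae*, given above with the trafficking genes, is also among these 8. Without AML replicates 4 and 5, 6 of the 19 hypoxia genes were called lower (median -0.51) and 6 of the 14 TGF-beta genes higher (median 0.37). In that fit 0.569% of all genes were called and the median of all genes was -0.01. Both lists were chosen with these results known and are not independent evidence. By array, the mean of the 19 hypoxia genes was 8.54 to 8.82 in fresh, 8.29 to 8.96 in DC-conditioned and 7.14 to 8.60 in AML-conditioned medium. AML replicates 4 and 5 had the lowest hypoxia means, 7.42 and 7.14, together with the lowest *Cxcr4*, and AML replicates 6 and 7 had the highest, 8.60 and 8.57, together with the highest *Cxcr4* of that group. The TGF-beta mean was 6.71 to 6.86 in fresh, 6.79 to 6.98 in DC-conditioned and 7.18 to 7.65 in AML-conditioned medium, and it was highest in AML replicates 5 and 4 and lowest in replicate 6, as was *Ccr8*. The part of these lists in the receptor results was not tested.

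**Figure D4:**
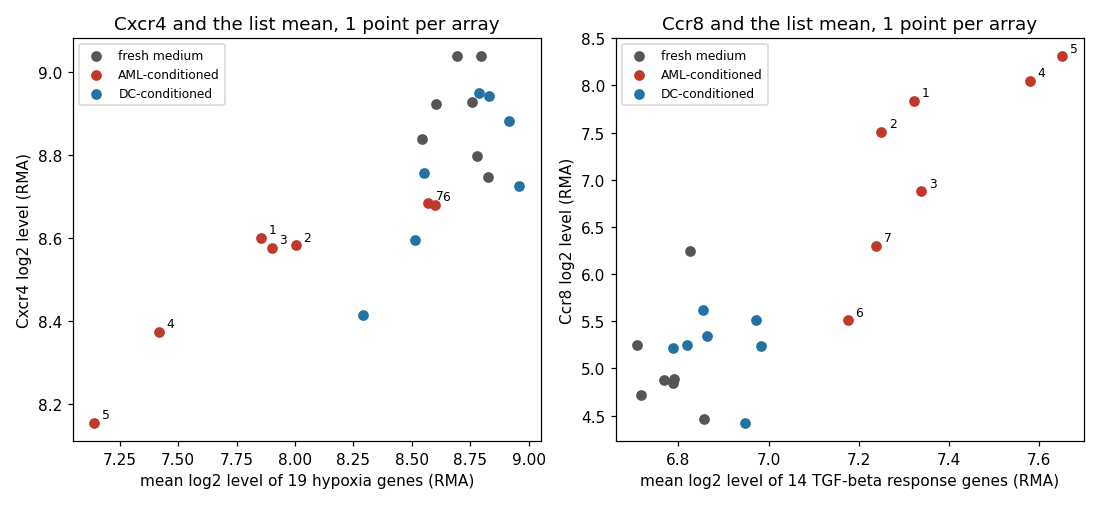
Left, *Cxcr4* log2 level against the mean log2 level of 19 hypoxia genes, and right, *Ccr8* against the mean of 14 TGF-beta response genes, 1 point per array, with AML replicates numbered. AML replicates 4 and 5 hold the corner of low hypoxia mean (7.42 and 7.14) and low *Cxcr4* (8.37 and 8.16), and that of high TGF-beta mean (7.58 and 7.65) and high *Ccr8* (8.05 and 8.31).

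Regulatory T cells are a cell type known for *Ccr8* and *Ccr4*. Of 4 measured markers of these cells, 1 rose with AML-conditioned against fresh medium and 0 fell (median 0.71), beside 2.77% of all genes called. It was *Gpr83*, by 1.42 (SE 0.35, adjusted p = 0.0293), and by 0.72 (adjusted p = 0.0532) without AML replicates 4 and 5. In that fit 0 of the 4 were called by limma against fresh medium, beside 0.569% of all genes. Against DC-conditioned medium *Gpr83* rose by 1.49 (SE 0.35, adjusted p = 0.0227), and by 0.79 (adjusted p = 0.0345) without AML replicates 4 and 5. The *Gpr83* call against fresh medium was also lost without fresh replicate 2 or fresh replicate 3. *Gpr83* is also on the TGF-beta list. The mean of the 4 markers was 6.76 to 7.33 in fresh, 6.66 to 7.21 in DC-conditioned and 7.05 to 8.64 in AML-conditioned medium, with AML replicates 4 and 5 at 8.30 and 8.64. *Ikzf2*, the Helios gene, was at 9.0 ± 0.18 in fresh and 9.09 ± 0.17 in AML-conditioned medium (SD, n = 7 each, adjusted p = 0.828). The other uncalled markers, *Lrrc32* and *Il2ra*, differed from fresh medium by 0.89 (limma adjusted p = 0.0750) and 0.53 (adjusted p = 0.0725). Their differences to DC-conditioned medium were 0.91 (adjusted p = 0.0778) and 0.57 (adjusted p = 0.0575). *Foxp3*, the defining gene, is not analysed here, and the part of regulatory cells in the *Ccr8* result was not tested.

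Genes were also ranked by how closely their levels followed *Ccr8* and *Cxcr4* over the 21 arrays, which share 1 normalization and 3 media, as a description. The closest to *Ccr8* were *Hipk2* (Pearson r = 0.93), *Sh3bp2* (0.93) and *Cish* (0.93), a STAT5 target that restrains cytokine signalling. Once each group's mean was taken out, they were *Lrrc32* (r = 0.89), which encodes the surface anchor of latent TGF-beta and is on the regulatory T cell list, *Slc25a22* (0.83) and the cytokine gene *Tnf* (0.82). The closest to *Cxcr4* were *Rnf181* (r = 0.89), *P4ha1* (0.88), a collagen prolyl hydroxylase gene of the hypoxia list, and *Ost4* (0.87), and without the group means *Prkaca* (0.82), *Ost4* (0.81) and *Tbc1d19* (0.81). Among the receptors themselves, the residuals of *Ccr8* correlated with those of *Cxcr6* at r = 0.61 and those of *Ccr2* with *Cxcr3* at r = 0.73, over the 21 arrays.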

How the data were processed

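RNA of 21 samples, 7 per medium, was measured on 1-colour Affymetrix arrays. The authors deposited log2 levels per transcript cluster. Per the submitters' processing notes, RMA and oligo were used, with no version named. RMA subtracts background, equalises the arrays by quantile normalization and combines the probes of a cluster, and differences of dim genes come out compressed. Of 22203 transcript clusters, 19572 had 1 symbol. For 55 symbols with several clusters, the one with the highest mean was kept, which left 19505 genes, with no filter on level.

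One limma 3.58.1 fit (lmFit and eBayes, R 4.3.3) over all 21 arrays, without covariates, gave the 3 comparisons. P-values are two-sided and were adjusted by Benjamini-Hochberg over all genes. The method was run on simulated data with independent noise for each gene and array. These data held no sets of replicates and no arrays that stood apart, so they cannot show how such arrays affect the calls. The number of arrays limits the precision. The 8 receptors and all gene lists were chosen with earlier results of these data known. Beside the receptors, the rule for named genes allowed up to 6 called and 2 abundant uncalled members of each list, and the 3 genes most like each called receptor. The alternatives were other normalizations, filters, moderations, weights, blocks and subsets of arrays, and the interaction of medium with the set of replicates was added after seeing the data. One label field names reticular cells, and all other fields name CD8+ T cells.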

Additional observations from a re-analysis of the deposited data

Results flagged for a closer look

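Single arrays stood apart in 3 of the 24 receptor groups of 7 arrays, judged at Dixon's 95% critical value for the gap to the nearest array as a share of the range; chance alone gives about 1 in 20. *Ccr8* in DC replicate 3 was the lowest of its group at 4.43, with the next array at 5.22 (share 0.661). *Ccr7* in fresh replicate 4 was the highest of its group at 10.80, with the next at 10.62 (share 0.589). *Ccr7* in DC replicate 1 was the highest of its group at 10.62, with the next at 10.46 (share 0.637). A gap to the nearest array cannot pick out 2 arrays that lie together, such as AML replicates 4 and 5.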

How the results depend on the processing

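Each of the 24 receptor results was computed under 35 alternatives, 21 of them leaving out 1 array. Of these 840 values, 801 kept their direction and side of the threshold, 9 lost the call, 5 gained it and 25 changed sign. *Ccr8* kept its call in 34 of 35 in both AML comparisons, losing it in replicates 4 to 7 alone. With 1 array left out it ranged from 1.97 to 2.44 against fresh and from 1.79 to 2.25 against DC-conditioned medium. *Cxcr4* against fresh medium ranged from -0.41 to -0.32 and also lost its call with array weights (-0.32, adjusted p = 0.0505).

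The receptors called higher against fresh medium numbered 2 in replicates 1 to 3, 0 in replicates 4 to 7 and 1 to 2 with 1 array left out. Those called lower numbered 0 in either set, with array weights and without AML replicates 4 and 5, and 0 to 1 with 1 array left out. Against DC-conditioned medium, 2 were called higher in replicates 1 to 3 and 0 in replicates 4 to 7. All genes called for AML against fresh medium were 32 in replicates 4 to 7, 1026 with a term for the sets, 246 with the 2 groups fitted alone, 111 without AML replicates 4 and 5, and 218 to 776 with 1 array left out (299 without fresh replicate 2, 341 without fresh replicate 4, 249 without AML replicate 4 and 218 without AML replicate 5). For AML against DC-conditioned medium they were 43, 797, 249, 92 and 220 to 784 (220 without AML replicate 4, 242 without AML replicate 5, 784 without AML replicate 6, 308 without DC replicate 4 and 289 without DC replicate 7). For DC-conditioned against fresh medium, 1 gene was called with the random effect (consensus correlation 0.093), with the term for the sets and without AML replicates 4 and 5, 2 with array weights, and 0 to 2 with 1 array left out.

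Signs changed in these uncalled results: against fresh medium, *Ccr2* was 0.26 in replicates 1 to 3 and 0.12 without AML replicates 4 and 5, *Ccr7* was 0.0060 in replicates 1 to 3, and *Cxcr3* was 0.028 without AML replicates 4 and 5. *Ccr4* was -0.32 for DC-conditioned against fresh medium in replicates 1 to 3 and -0.17 for AML against DC in replicates 4 to 7. *Cxcr6* for AML against DC was -0.12 in replicates 1 to 3 and -0.012 without AML replicates 4 and 5. With 1 array left out, *Cxcr5* ran from -0.089 to 0.13 (AML against fresh), from -0.17 to 0.026 (DC against fresh) and from -0.00081 to 0.19 (AML against DC), and *Ccr4* from -0.10 to 0.18 (DC against fresh). The cause of these changes was not tested.

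The replicate numbers were not taken to pair the samples: deviations correlated above 0.1 in 18 of 21 pairs (lowest -0.13, median 0.24, highest 0.50), and 7 of 21 arrays matched their own number best. Under the replicate block the called genes numbered 1012 for AML against fresh medium, 784 for AML against DC and 1 for DC against fresh. The block made 1 receptor call lower against DC-conditioned medium, *Cxcr3* at -0.43 (adjusted p = 0.0371), and changed no other receptor call.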
